A study of Mus musculus with 6 samples.

Results

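The genes described here encode the proteins of the cytosolic ribosome in mouse fetal liver. They were chosen by name: a probe set with exactly 1 gene symbol that starts with Rpl or Rps and a digit, or that reads Rpsa, Rplp0, Rplp1 or Rplp2, was taken, and pseudogene symbols, S6 kinases and symbols ending in l1 were left out. The rule found 62 genes among 19938 named genes, and each was represented by its brightest probe set. Of the 62, 54 encode structural proteins of the ribosome: 30 of the large subunit, 21 of the small subunit and the 3 proteins of the stalk. The other 8 symbols are Rpl3l, Rpl10l, Rpl39l, Rpl32l, Rps27l, Rps4l, Rps19bp1 and Rps23rg1. Of these, Rps19bp1 and Rps23rg1 are named after a ribosomal protein gene without encoding a subunit protein. Against a list of 77 subunit genes, 16 had only probe sets shared with other symbols, such as Rpl3, Rpl11, Rpl15 and Rps24, and these are not analysed here as genes.

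RNA came from whole livers of 3 Tmod3-/- embryos and of 3 wild type (Tmod3+/+) embryos, all at E14.5, on the C57BL/6J background and from separate embryos. The labels describe the knockout embryos as anemic with a small fetal liver, and the sources used here do not say how the Tmod3 allele was made. Tmod3 encodes tropomodulin 3, a protein that binds and caps actin filaments at their pointed ends. The arrays were of the Affymetrix MoGene 1.0 ST type, 1 for each liver, and values are deposited log2 levels.

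A ribosome joins a small subunit, which reads the mRNA, to a large subunit, which forms the peptide bond, and each subunit is built from ribosomal RNA and one copy of nearly every ribosomal protein. Most ribosomal protein mRNAs begin with a C followed by an unbroken run of pyrimidines, the 5′ terminal oligopyrimidine tract, through which mTORC1 and the La-related protein Larp1 control their translation. Red cell formation is sensitive to ribosomal protein dose: in humans, loss of one copy of several of these genes causes Diamond-Blackfan anemia, in which erythroid precursors fail.

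Most ribosomal protein genes read slightly higher in knockout than in wild type liver, but none passed the test. Of the 62 genes, 48 had a positive log2 fold change (knockout minus wild type) and 14 a negative one, with a median of +0.19, an interquartile range of 0.01 to 0.33 and extremes of -0.40 for Rps15a and +0.68 for Rps28. Over all named genes 51.6% of fold changes were positive and the median was 0.01. None of the 62 had an adjusted p under 0.05 (limma with Benjamini-Hochberg adjustment over all named genes), a threshold that 3 genes, or 0.015%, passed in all. In 19 of the 62 every knockout array read above every wild type array, while 6.14% of all named genes did so, and in 0 of the 62 was the order the opposite, while 7.1% of all named genes did so. An unadjusted p under 0.05 was likewise found for 19 higher members (2.59% of all named genes) and 0 lower members (6.44%). Leaving out knockout replicate 2 brought the count of higher members to 8, and leaving out wild type replicate 2 brought it to 10. The shares of all named genes at that p are not given for those settings. These falls therefore cannot be read as particular to the ribosomal protein genes.

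**Figure D1:**
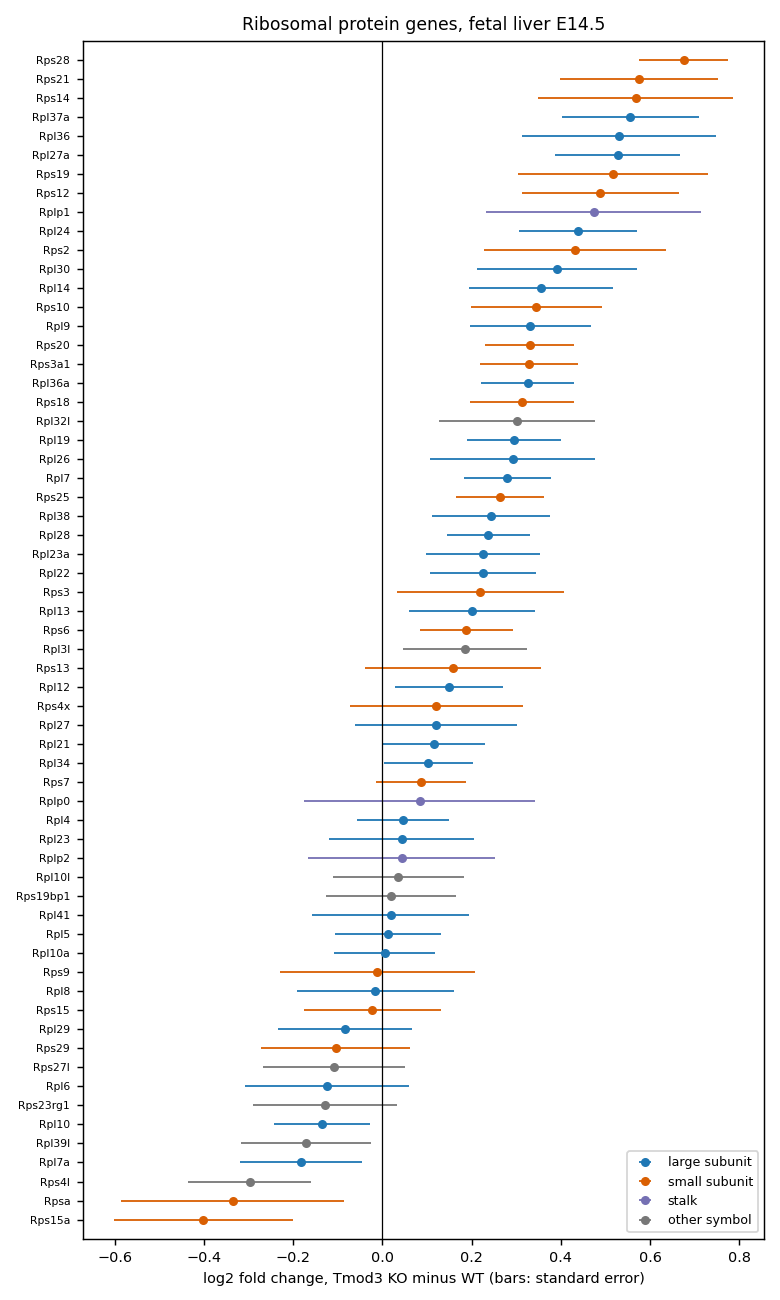
Log2 fold change (knockout minus wild type, horizontal axis) of each of the 62 genes, with bars for the standard error and genes sorted from the highest value at the top to the lowest at the bottom. Rps28 stands at the top at +0.68 and Rps15a at the bottom at -0.40, and 48 of the 62 points lie to the right of 0.

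The label check held. Tmod3 read 1.32, 2.36 and 1.30 in knockout replicates 1 to 3, against 4.49, 4.78 and 4.90 in wild type replicates 1 to 3 (log2 fold change -3.06, limma adjusted p = 0.0225). Correlations over all probe sets lay between 0.980 and 0.981 within the knockout group, between 0.978 and 0.990 within the wild type group and between 0.974 and 0.983 across groups, and no pair of arrays was identical. The upper part of the arrays differed: the 90th percentile of all probe sets was 3.67, 3.82 and 3.68 in knockout arrays, against 3.68, 4.07 and 4.13 in wild type arrays. Cell type markers differed too. Over all named genes 6.44% were lower and 2.59% higher at an unadjusted p under 0.05. Of 11 measured erythroid markers 6 were lower at an unadjusted p under 0.05, and their summed log2 level was 51.7 to 55.1 in knockout and 56.0 to 60.6 in wild type arrays. Of 11 hepatoblast markers 5 were lower (sums 64.6 to 74.6 in knockout, 73.5 to 78.1 in wild type arrays), and of 12 macrophage markers 3 were lower (21.3 to 28.0 in knockout, 26.5 to 30.2 in wild type arrays). Among the macrophage markers C1qa and Cd163 read below every array's median. Of 10 endothelial markers 2 were higher (18.2 to 19.8 in knockout, 17.1 to 18.2 in wild type arrays). The endothelial list read low, with a median level of 1.54, and only 3 of its genes had a mean level of at least 2. Of 8 megakaryocyte and neutrophil markers 1 was lower (23.3 to 26.2 in knockout, 25.2 to 26.9 in wild type arrays). The part of these shifts in the ribosomal protein values was not tested. In a whole liver, fewer cells of a type and less RNA per cell cannot be told apart.

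Among the proteins of the small subunit, Rps28 had the smallest p of all 62 genes. It encodes a small protein of the subunit head near the mRNA exit and is one of the human Diamond-Blackfan genes. Rps28 read 7.45, 7.62 and 7.63 in knockout arrays, against 6.91, 6.86 and 6.90 in wild type arrays. The groups were far apart for their spread: the lowest knockout array lay 0.54 above the highest wild type array, a gap larger than the range within either group. Its log2 fold change of +0.68 had a standard error of 0.10 (limma adjusted p = 0.139, unadjusted p = 0.000138). All 7 Rps28 probe sets separated the groups, with fold changes of +0.62 to +0.77. Rps28 aside, the median of the other 61 genes was +0.19.

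Rps20, a protein of the subunit head, read 8.58, 8.74 and 8.62 in knockout arrays, against 8.27, 8.30 and 8.39 in wild type arrays (+0.33, limma adjusted p = 0.385). Rps3a1, which lies at the platform near the mRNA exit, read 8.49, 8.63 and 8.62 in knockout arrays, against 8.33, 8.33 and 8.10 in wild type arrays (+0.33, limma adjusted p = 0.427). Both genes had tight knockout values and no overlap. Rps18, a head protein that contacts the large subunit, read 8.92, 9.22 and 9.001 in knockout arrays, against 8.68, 8.68 and 8.84 in wild type arrays (+0.31, limma adjusted p = 0.484). Its lowest knockout array lay just above its highest wild type array.

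In other genes of the small subunit 1 knockout array stood apart. Rps12, a protein of the subunit's beak, read 9.72, 10.42 and 9.89 in knockout arrays, against 9.58, 9.53 and 9.45 in wild type arrays (+0.49, limma adjusted p = 0.467). Rps21, a protein of the subunit body, read 7.03, 7.66 and 7.20 in knockout arrays, against 6.70, 6.54 and 6.91 in wild type arrays (+0.58, limma adjusted p = 0.394). Rps19, the gene most often mutated in Diamond-Blackfan anemia, read 6.71, 7.50 and 6.74 in knockout arrays, against 6.65, 6.37 and 6.37 in wild type arrays (+0.52, limma adjusted p = 0.533). In each of these genes knockout replicate 2 was the highest array, and for Rps19 the other knockout arrays lay less than 0.10 above the highest wild type array. Rps14, whose human counterpart is lost in the 5q- syndrome and which was named after its values were seen, had +0.57 with overlapping groups. Its knockout arrays read 7.34, 7.41 and 7.45, against 6.69, 6.42 and 7.37 in wild type arrays (limma adjusted p = 0.502). Only the third wild type array reached the knockout values.

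Rps6, the substrate of the S6 kinases below mTORC1, had the highest reading of all 62 genes, with 10.58, 10.62 and 10.56 in knockout arrays, against 10.49, 10.46 and 10.26 in wild type arrays. The groups did not overlap, but the fold change was only +0.19 (limma adjusted p = 0.677). Below 0 stood Rpsa, a small subunit protein that is also known as a laminin receptor. It read 7.60, 8.27 and 7.35 in knockout arrays, against 7.73, 8.12 and 8.37 in wild type arrays (-0.34, limma adjusted p = 0.768). Its arrays spread more widely than the groups differed. Rps15a, another Diamond-Blackfan gene, read low throughout, with 2.75, 2.72 and 2.42 in knockout arrays, against 2.57, 3.20 and 3.32 in wild type arrays (-0.40, limma adjusted p = 0.622). Over the 21 genes of the small subunit 16 fold changes were positive, the median was +0.26, and in 9 genes the knockout arrays lay above all wild type arrays.

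**Figure D2:**
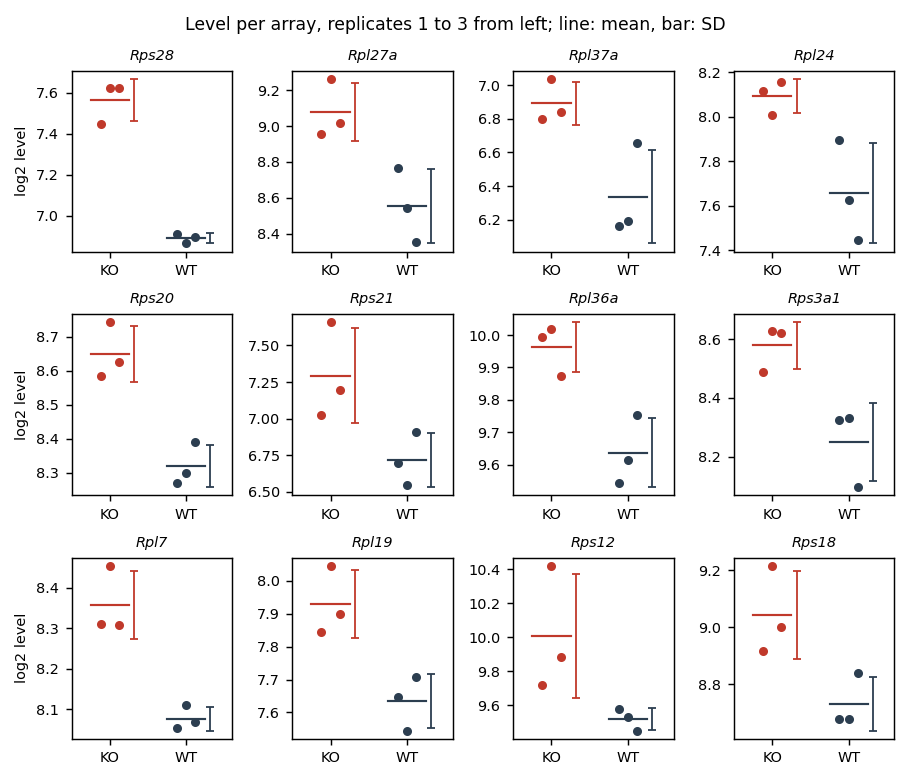
Log2 level on each array (vertical axis, with its own range in each panel) for the leading genes without overlap, with knockout replicates 1 to 3 left of wild type replicates 1 to 3, a line for the mean and a bar for the SD. For Rps28 the gap between the groups is 0.54, while for Rps12 and Rps21 knockout replicate 2 stands above its group.

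In the large subunit, Rpl27a and Rpl37a had the smallest p. Rpl27a, a core protein of the subunit, read 8.95, 9.26 and 9.02 in knockout arrays, against 8.76, 8.54 and 8.35 in wild type arrays (+0.53, standard error 0.14, limma adjusted p = 0.326). Its 9 probe sets had fold changes of +0.43 to +0.53. Rpl37a, a zinc-binding protein, read 6.80, 7.04 and 6.84 in knockout arrays, against 6.16, 6.19 and 6.66 in wild type arrays (+0.56, standard error 0.15, limma adjusted p = 0.345). Here the groups were separated by 0.14, with the third wild type array closest to the knockout arrays.

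Rpl24, which forms a bridge to the small subunit, read 8.12, 8.01 and 8.16 in knockout arrays, against 7.89, 7.63 and 7.45 in wild type arrays (+0.44, limma adjusted p = 0.384). Rpl19, another bridge protein, read 7.84, 8.05 and 7.90 in knockout arrays, against 7.65, 7.54 and 7.71 in wild type arrays (+0.30, limma adjusted p = 0.459). Neither gene's groups overlapped. Rpl7 read 8.31, 8.45 and 8.31 in knockout arrays, against 8.05, 8.11 and 8.07 in wild type arrays (+0.28, limma adjusted p = 0.448). Rpl36a, which lies near the exit site for transfer RNA, read 9.99, 10.02 and 9.88 in knockout arrays, against 9.54, 9.61 and 9.75 in wild type arrays (+0.33, limma adjusted p = 0.408). Again the groups did not overlap, and the gap for Rpl7 was 0.20. The remaining genes of this subunit without overlap were Rpl28 (+0.24), Rpl9 (+0.33) and Rpl14 (+0.36), and Rpl9 was separated by 0.01. In the small subunit Rps25, which viral internal ribosome entry sites need, was the other such gene (+0.26, limma adjusted p = 0.487).

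Rpl36, named after its values were seen, read 7.20, 7.83 and 7.11 in knockout arrays, against 6.62, 6.74 and 7.18 in wild type arrays (+0.53, limma adjusted p = 0.529). Knockout replicate 3 lay below wild type replicate 3, so the groups overlapped, and all 9 of its probe sets were positive. For 3 further large subunit genes the difference was small. Rpl5, which with Rpl11 and the ribosomal 5S RNA can bind the p53 inhibitor Mdm2, read 10.27, 10.05 and 10.21 in knockout arrays, against 10.19, 10.30 and 10.002 in wild type arrays (+0.01, limma adjusted p = 0.988). Rpl4, which lines the exit tunnel of the nascent chain, read 10.45, 10.46 and 10.44 in knockout arrays, against 10.27, 10.47 and 10.47 in wild type arrays (+0.05, limma adjusted p = 0.937). Both signs flipped under renewed quantile normalization, to -0.03 for Rpl5 and -0.10 for Rpl4. Rpl12, from the base of the stalk, read near the floor of the arrays, with 1.22, 1.18 and 1.53 in knockout arrays, against 1.13, 1.14 and 1.21 in wild type arrays. A probe set this dim says little about a subunit protein gene. Of the 30 large subunit genes 25 had a positive fold change, the median was +0.21, and 9 had no overlap between groups.

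The stalk recruits elongation factors to the ribosome. Rplp1 read 8.35, 9.24 and 8.29 in knockout arrays, against 8.23, 7.99 and 8.24 in wild type arrays (+0.47, limma adjusted p = 0.631). Knockout replicate 2 carried most of that difference, and the other knockout arrays lay less than 0.15 above the highest wild type array. Rplp0, the stalk base, read 6.59, 7.37 and 6.65 in knockout arrays, against 6.41, 6.72 and 7.23 in wild type arrays (+0.08, limma adjusted p = 0.955), and Rplp2 had +0.04 at a low level. The mean of the Rplp0 probe sets had the opposite sign, -0.15.

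The 8 paralogs and other symbols had a median of -0.04, with 4 positive and 4 negative of 8 and no gene at an unadjusted p under 0.05. Rps27l, a p53-responsive paralog of Rps27, read 6.12, 5.85 and 6.11 in knockout arrays, against 5.81, 6.31 and 6.29 in wild type arrays (-0.11, limma adjusted p = 0.896), and its sign flipped to +0.07 under renewed quantile normalization. The muscle paralog Rpl3l (+0.19) and the testis paralogs Rpl10l (+0.04, and -0.012 after renewed quantile normalization) and Rpl39l (-0.17) all read below 2 on every array, and Rpl7l1, which the rule leaves out, had -0.07. Fau, whose product is a ubiquitin-like protein fused to the small subunit protein Rps30 and which also lies outside the rule, read 5.26, 6.12 and 5.68 in knockout arrays, against 5.13, 5.19 and 5.69 in wild type arrays (+0.35, limma adjusted p = 0.740). Its fold change was +0.58 after renewed quantile normalization, +0.57 without knockout replicate 1 and +0.13 without knockout replicate 2.

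Of 9 measured genes on the human Diamond-Blackfan list, 7 had a positive fold change with a median of +0.12, and 3 were higher at an unadjusted p under 0.05, which 2.59% of all named genes were. These were Rps28, Rps19 and Rps10. The median was +0.19 after renewed quantile normalization, +0.28 without wild type replicate 3 and +0.25 without knockout replicate 1. Rps10 read 7.39, 7.45 and 7.43 in knockout arrays, against 6.98, 6.86 and 7.40 in wild type arrays (+0.34, limma adjusted p = 0.546). Its knockout arrays were nearly alike and the third wild type array reached them. Rpl26 had +0.29, Rps7 +0.09 and Rps29, which was named after its values were seen, -0.10.

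The differences between arrays of one genotype were of the size of the shift. For the 54 subunit genes the median deviation from each gene's mean over the 6 arrays was 0.08, 0.21 and 0.07 in knockout replicates 1 to 3, against -0.20, -0.15 and 0.06 in wild type replicates 1 to 3. The third wild type array therefore sat with the knockout arrays. Knockout replicate 2 was the highest array for 25 of the 54 genes, wild type replicate 3 for 13, and wild type replicate 1 was the lowest for 26. Without wild type replicate 3 the median over the 62 genes was +0.27. In that setting 33 of the 62 had all knockout arrays above the wild type arrays, while 9.87% of all named genes did so. Without wild type replicate 1 the median was +0.13.

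**Figure D3:**
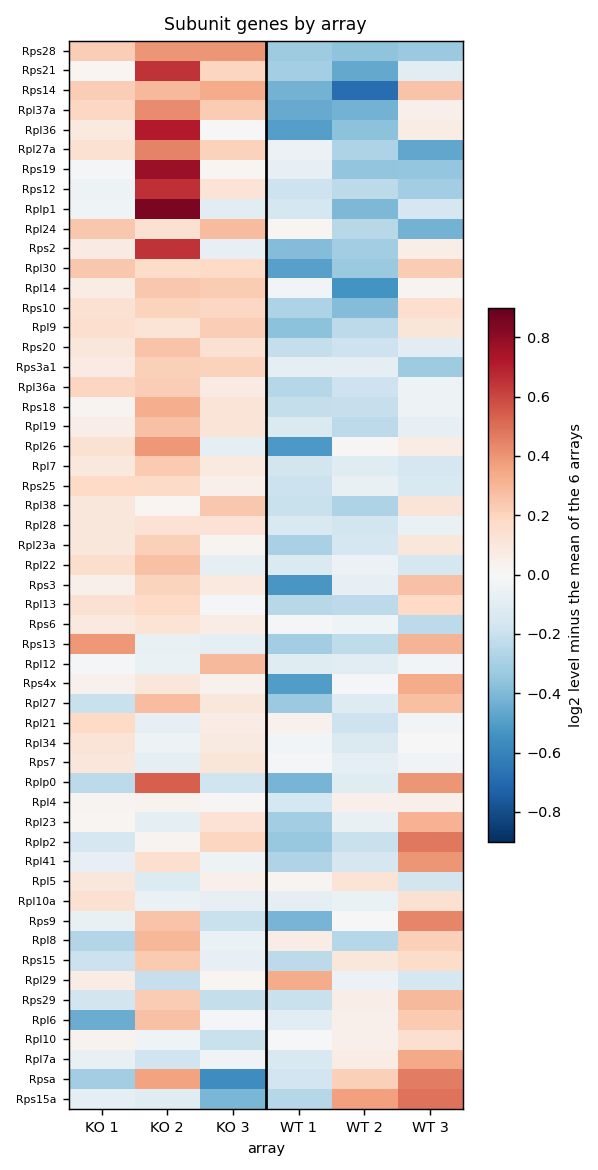
Deviation of each subunit gene from its own mean over the 6 arrays (colour, log2 scale), with knockout arrays 1 to 3 left of wild type arrays 1 to 3. Knockout replicate 2 has the highest median deviation, 0.21, and wild type replicate 1 the lowest, -0.20.

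Several probe sets of a gene mostly agreed in direction. The 62 genes had 218 probe sets with a single symbol, of which 179 had a positive fold change. In 79 of them all knockout arrays lay above all wild type arrays, and in 0 was the order the opposite. Rps12 alone held 13 of the 79. The share of all single-symbol probe sets with that order is not given here, so the count of 79 has no background beside it. Of 39 genes with several probe sets 25 were positive in all of them, 3 (Rpl10, Rps15 and Rps29, named after their values were seen) were negative in all, and 11 held both signs. Probe sets of one gene are not independent: 19 had values identical to another on all 6 arrays. Ribosomal protein genes have many processed pseudogenes of near-identical sequence, so probe sets can report a gene and its copies together, and every level here is uncertain to that extent. Of the 19 genes without overlap, 14 had several probe sets, and all of these were higher in every probe set. Only 7 of the 14 were without overlap in every probe set, and for Rpl9 1 of 8 probe sets was.

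Genes with bright probe sets mostly read lower in knockout arrays, and the ribosomal protein genes among them mostly read higher; brightness is no measure of transcript amount between genes. At a mean level of at least 5 on the log2 scale, 49 of the 62 genes had a median of +0.23, and 40 of them, or 81.6%, were positive. The other 909 named genes at that level had a median of -0.25, and 17.8% were positive. Among those other genes 2.09% had all knockout arrays above all wild type arrays and 21.0% the reverse, and the share of 2.09% was 6.16% after renewed quantile normalization and 5.94% after cyclic loess. The difference held in narrower ranges: between 5 and 7 the medians were +0.19 for 12 ribosomal protein genes and -0.27 for 666 others, between 7 and 9 they were +0.30 for 25 and -0.23 for 210, and from 9 upward +0.12 for 12 and -0.05 for 33. Below 5, 13 ribosomal protein genes had a median of +0.04. The median of the other bright genes depended on scaling and was -0.10 after renewed quantile normalization, where the 62 genes had +0.21.

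**Figure D4:**
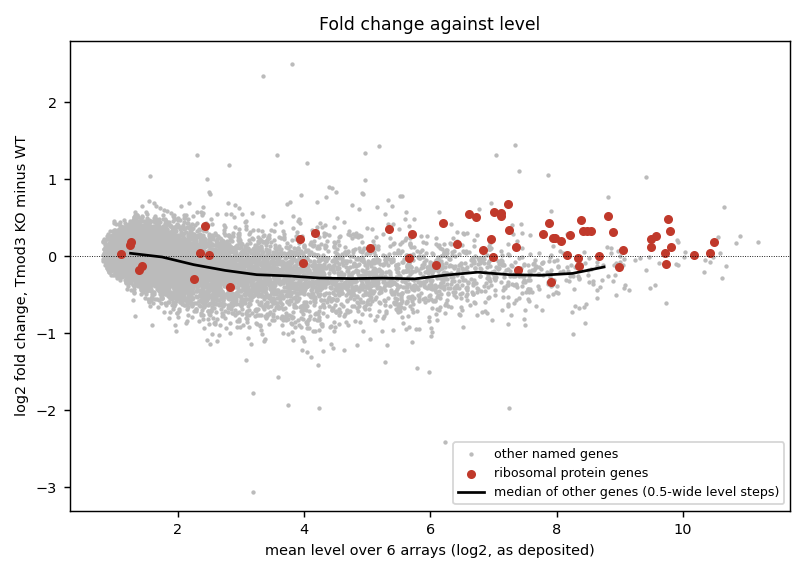
Log2 fold change (knockout minus wild type, vertical axis) against mean log2 level over 6 arrays (horizontal axis) for all named genes, with the ribosomal protein genes marked. Above a level of 5 the 49 ribosomal protein genes have a median of +0.23 and the 909 other genes one of -0.25.

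Most lists of genes that work with the ribosome had medians below 0 or near it, and no gene on these lists passed the adjusted threshold. The exception was the list of small nucleolar RNA hosts, with 2 measured transcripts and a median of +0.34. Of 74 measured mitochondrial ribosomal protein genes, which build the separate ribosome of mitochondria, 14 were positive and 60 negative. Their median was -0.24, 20 were lower at an unadjusted p under 0.05 and 18 had all knockout arrays below all wild type arrays, against 6.44% and 7.1% of all named genes. Among named genes with a mean level of 2 or more, 18.2% had that order and the median was -0.19. Mrps18a averaged 1.91 ± 0.11 in knockout and 2.54 ± 0.12 in wild type arrays (SD, n = 3 arrays each, -0.63, limma adjusted p = 0.184), and Mrpl50 averaged 3.85 ± 0.25 in knockout and 4.72 ± 0.28 in wild type arrays (-0.87, limma adjusted p = 0.204). Mrpl55 had -0.71 and Mrpl1 -0.61. The median of the mitochondrial list was -0.13 after renewed quantile normalization, -0.12 after cyclic loess and -0.16 without wild type replicate 3.

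Of 38 ribosome assembly genes 30 were negative, with a median of -0.15 and 4 lower at an unadjusted p under 0.05, a share not far from the 6.44% of all named genes. The median was -0.092 after renewed quantile normalization, -0.085 after cyclic loess, -0.24 without wild type replicate 1, -0.093 without wild type replicate 3 and -0.26 among genes with a mean level of 2 or more. The 4 genes were Riok2, a kinase of late small subunit maturation (-0.91), Ltv1, an export factor of that subunit (-0.40), Gnl2, a GTPase of large subunit assembly (-0.35), and Pes1, which processes large subunit RNA (-0.33). Of 14 RNA polymerase I genes, which transcribe ribosomal RNA, 10 were negative with a median of -0.06, which was -0.012 after renewed quantile normalization, -0.17 without knockout replicate 2, -0.18 without wild type replicate 1 and +0.0019 without wild type replicate 3. Twistnb, a polymerase subunit, had -0.65 and Taf1d, a promoter factor, +0.25.

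Translation factors outside the terminal oligopyrimidine list had a median of -0.19, with 15 of 20 negative and 3 lower at an unadjusted p under 0.05 (6.44% of all named genes). The median was -0.086 after renewed quantile normalization, -0.076 after cyclic loess, -0.30 without wild type replicate 1 and -0.093 without wild type replicate 2, and other genes at a mean level of at least 5 had -0.25. The 3 genes were Eif3d (-0.48), Eif5b, which joins the subunits (-0.42), and Eif5 (-0.29). Other mRNAs known for a terminal oligopyrimidine tract were evenly split, with 9 positive and 10 negative of 19 and a median of -0.01 that flipped to +0.06 after renewed quantile normalization and +0.04 after cyclic loess, and was -0.18 without wild type replicate 1. In that list Eif2s3x (-0.73), Eef1d (-0.46) and Eif3l (-0.41) were lower at an unadjusted p under 0.05 and 0 were higher. Of all named genes 6.44% were lower and 2.59% higher at that p. Among other genes at a mean level of at least 5, 26.5% were lower. The 2 measured host transcripts of small nucleolar RNAs, which carry such tracts too, had +0.42 (Snhg5) and +0.27 (Gas5), and the mean of the Gas5 probe sets had the opposite sign, -0.021.

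Of 15 regulators of these mRNAs, 7 were positive and the median was -0.02, with +0.02 without knockout replicate 1. Ddit4, an mTORC1 inhibitor, had +0.33, Eif4ebp1, a translation repressor below mTORC1, +0.36, Rheb, an mTORC1 activator, -0.48 and Ssb, the La protein, -0.41. Only Ddit4 (higher) and Rheb (lower) had an unadjusted p under 0.05, while 2.59% of all named genes were higher and 6.44% lower at that p. Ddit4 and Eif4ebp1 read low, with mean levels of 1.23 and 1.91, so their values say little. Of 13 p53 targets, which respond when free ribosomal proteins bind Mdm2, 4 were positive and the median was -0.06, which flipped to +0.025 after renewed quantile normalization, +0.048 after cyclic loess and +0.043 without wild type replicate 3. Plk2, a kinase, had +0.50 and Ccng1, a cyclin, -0.28. Each was among the genes at an unadjusted p under 0.05, beside the same 2.59% higher and 6.44% lower of all named genes. Plk2 read near the floor of the arrays, with a mean level of 1.62. Cell type markers, as given above, were mostly lower in the same arrays, and their part in these lists was not tested.

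**Figure D5:**
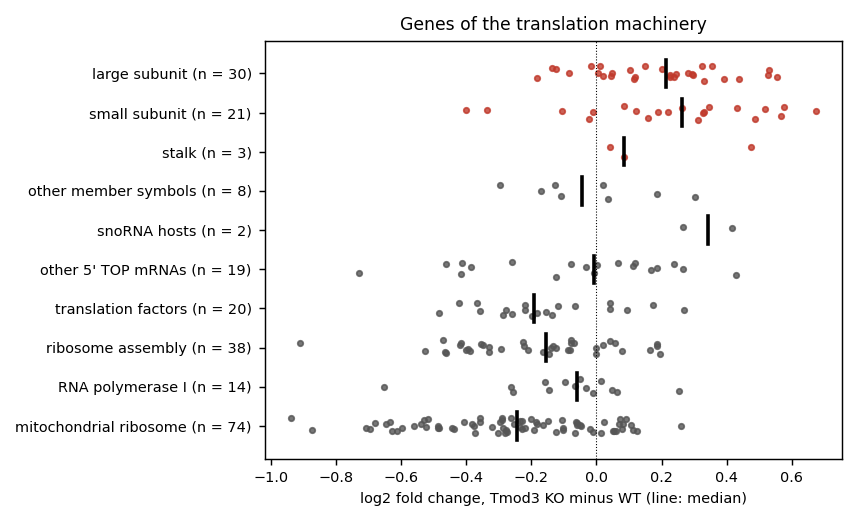
Log2 fold change (knockout minus wild type, horizontal axis) of each gene in the ribosomal protein classes and the accompanying lists, one row a list, with a line at the median. Small subunit genes have a median of +0.26 and large subunit genes one of +0.21, while mitochondrial ribosomal protein genes have one of -0.24.

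Start sites of the genes were read from RefSeq on the build GRCm38.p6, where 43 of the 54 subunit genes had a window of 250 bases before to 50 after the annotated start. The stretches below run from 5 bases before the start to 24 after it, and capitals mark a pyrimidine run of at least 6 that begins with C within 10 bases of the start. They are shown because the tract is the sequence feature these mRNAs are known for, and Rps28 and Rpl24 are shown as leading genes without it at their annotated start. Positions are chr7:109519190-109519219 (plus strand) for Rpl27a, chr17:33955641-33955670 (minus) for Rps18, chr10:23787185-23787214 (minus) for Rps12, chr2:180257374-180257403 (plus) for Rps21, chr7:4792960-4792989 (plus) for Rpl28, chr4:86857343-86857372 (minus) for Rps6, chr17:33824538-33824567 (minus) for Rps28 and chr16:55966270-55966299 (plus) for Rpl24.
Rpl27a: gCTCCTCCCTTTTCCCTTTCTgccaccgcc
Rps18: ccgCTCTCTCTTCCacaggaggcctacacg
Rps12: cggccaccgccggCCTTTTCCCCTgccgcc
Rps21: ccgCCCTCCTgcccaatagtgctgcggagg
Rpl28: tgtCTCTCTTTCCgtctccggccgccatag
Rps6: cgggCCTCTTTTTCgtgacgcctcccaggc
Rps28: gcggtctcgcgagagcgaaagtgaggcgtg
Rpl24: tgctaggaaacagactgggcgctcggaagt

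Such a tract was found in 18 of the 43 genes, or 41.9%, against 20.4% of the 27025 genes with a window. It was in 8 of 16 subunit genes whose knockout arrays lay above all wild type arrays and in 10 of 27 others. The motif rule and the motifs below were chosen after the sequences were seen, and an annotated start may lie away from the start used in liver. The letters CCGGAA, the core of sites for ETS factors, were searched on both strands of the whole window and were in 23 of 43 genes, or 53.5%, against 16.7% of all genes. The palindrome CTCGCGAG was in 7 of 43, or 16.3%, against 1.04% of all genes, and the printed Rps28 stretch holds it. By group, CCGGAA was in 9 of 16 and 14 of 27 genes, CTCGCGAG in 4 of 16 and 3 of 27, and GGGCGG in 7 of 16 and 19 of 27. GGGCGG was in 60.5% against 38.2% of all genes, TATAAA in 11.6% against 15.7%, and GCCATCTT in 4.65% against 3.19%. The 100 bases that end at base 1 before the start are printed for 3 genes without overlap that hold both or repeated motifs, with those letters in capitals. They lie at chr7:109519095-109519194 (plus) for Rpl27a, chr4:86857368-86857467 (minus) for Rps6 and chr2:180257279-180257378 (plus) for Rps21.
Rpl27a: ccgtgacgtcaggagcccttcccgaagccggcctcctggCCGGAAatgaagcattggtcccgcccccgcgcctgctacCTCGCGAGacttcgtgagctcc
Rps6: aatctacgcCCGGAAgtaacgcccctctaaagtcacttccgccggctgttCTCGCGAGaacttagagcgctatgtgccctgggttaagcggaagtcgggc
Rps21: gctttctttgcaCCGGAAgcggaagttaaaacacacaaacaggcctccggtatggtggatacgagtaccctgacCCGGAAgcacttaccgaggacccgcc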

How the data were processed

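Total RNA of 3 Tmod3-/- and 3 wild type fetal livers was measured on 1 array each. The deposited table holds log2 values per probe set, produced by the authors using RMA (version not stated), as the submitters' processing notes say. No source used here states the log base, which was read from the range of the values, so fold changes are those of the deposited scale. Arrays have no read depth, and their number limits the precision.

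Of 28853 probe sets 21789 had 1 gene symbol in the platform annotation, 1621 several and 5443 none there. All 62 ribosomal protein genes were matched by Entrez identifier to RefSeq (GRCm38.p6), and 0 symbols changed. Where several probe sets shared a symbol, the one with the highest mean was used. Genotypes were compared two-sidedly in R 4.3.3 with limma 3.58.1 (lmFit, then eBayes without trend or covariates), with p adjusted by Benjamini-Hochberg over 19938 genes at a threshold of 0.05, and the fit was tested on simulated data. Differences are knockout minus wild type. Lists are described by counts and medians, with no test over a list.

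The genes and the accompanying lists were chosen with earlier results of these data known. Ribosomal protein genes named in the text are up to 12 in each direction by smallest p without overlap between groups, the 3 highest and lowest by level, the 3 with the largest spread within a group, paralogs, and up to 6 Diamond-Blackfan genes. Of each other list up to 4 genes by smallest p are named. Rps14, Rps25, Rps29, Rpl9, Rpl14, Rpl28, Rpl36, Rplp2, Rps15, Rpl10 and Rps4l were chosen after their values were seen. Alternatives were other scalings, filters, probe sets and fits, the replicate block, and leaving out arrays.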

Additional observations from a re-analysis of the deposited data

Results flagged for a closer look

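Probe sets that carry a ribosomal protein symbol together with other symbols were used in no comparison above and showed a shift of their own. They number 237 and cover 34 subunit genes, of which 16 have no probe set of their own. Their median log2 fold change (knockout minus wild type) was +0.10, and 168 of them, or 70.9%, were positive. The other 1384 probe sets with several symbols had a median of +0.04, and 60.5% were positive. Those 1384 had a median level of 1.28, against 7.95 for the 237, so the sets are not matched by level. Of the other named genes at a mean level of at least 5, 17.8% were positive. All knockout arrays lay above all wild type arrays in 41 of the 237, and below them in 7. Among the other 1384 these counts were 84 and 83. The median level of the 237 was 7.96, 8.07 and 7.93 in knockout replicates 1 to 3, against 7.80, 7.81 and 7.97 in wild type replicates 1 to 3. As for the genes above, the third wild type array sat among the knockout arrays. Such probe sets can report several genes and pseudogenes at once, and no single gene is named from them.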

How the results depend on the processing

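The positive median over the ribosomal protein genes kept its sign under every alternative run, and no member had an adjusted p under 0.05 in any of them. It was +0.21 after renewed quantile normalization, +0.20 after cyclic loess and +0.15 after centring each array on its median, and between +0.13 and +0.27 when 1 array was left out. The adjusted p of Rps28 (0.139) lay between 0.054 with array quality weights and 0.623 without wild type replicate 2. Members higher at an unadjusted p under 0.05 (19) numbered 12 after median centring and 8 with an intensity trend and robust fitting. They numbered 7 among genes at a mean of 2 or more and 4 among members with 1 probe set. The count was 8 to 21 when 1 array was left out. The shares of all named genes at that p in these settings are not given here. These changes in count therefore cannot be read as particular to the ribosomal protein genes. Members lower at that p (0) numbered 1 after median centring (Rps4l), with the replicate block (Rps4l) and with array quality weights (Rps15a), and 0 to 1 when 1 array was left out. Members without overlap and higher (19 of 62) included 5 of the 23 with 1 probe set. They numbered 15 after median centring (4.07% of all named genes) and 17 with the mean of all probe sets of a gene (6.17%). The count was 21 after renewed quantile normalization (5.37%) and 23 after cyclic loess (5.69%). When 1 array was left out it was 20 to 33, where 9.83% to 15.0% of all named genes had that order. Those lower (0) numbered 1 after renewed quantile normalization or cyclic loess (Rpl10) and after median centring (Rps4l), and 1 to 5 when 1 array was left out, where overlap is less likely with fewer arrays. The share of all named genes with that order was then 9.97% to 17.2%. Without knockout replicate 2 and wild type replicate 1 together, an alternative chosen after seeing the data, 13 were lower. With an array gone from each group, overlap is less likely still. The share of all named genes and the number of higher members in that setting are not given here. The count of 13 therefore cannot show whether the direction reversed. Genes past the adjusted threshold (3) numbered 6 after renewed quantile normalization, 8 after cyclic loess, 11 with array quality weights, 0 with the replicate block, and 0 to 95 when 1 array was left out, with 95 without wild type replicate 1. Deviations of knockout and wild type arrays with the same replicate number correlated at 0.11, 0.06 and -0.11, and those with different numbers at -0.19 to 0.19. These few values cannot settle whether the numbers pair the samples. With the block Tmod3 (-3.06) did not pass, nor without knockout replicates 1 (-2.89) or 3 (-2.88) or wild type replicates 2 (-3.03) or 3 (-2.97). Small fold changes changed sign. Rpl10l had -0.012 after quantile normalization, -0.017 after cyclic loess, -0.0012 after median centring, -0.036 with array weights and -0.088 to +0.14 without single arrays. Rpl5 had -0.026, -0.093, -0.025 and -0.022 in the same order, -0.052 as the mean of its probe sets and -0.068 to +0.078 without single arrays. Rplp0 had -0.15 as the mean of its probe sets and -0.17 to +0.31 without single arrays. Rpl4 had -0.10 after quantile normalization, -0.078 after cyclic loess and -0.023 to +0.081 without single arrays. Rps27l had +0.067 and +0.047 after those scalings. Rps29 had -0.24 to +0.016 and Rplp2 -0.12 to +0.29 without single arrays. The cause was not tested for any of these changes. The number of arrays and the lack of an error for each probe set limit what differences can be seen.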
